A study of Mus musculus with 40 samples.

Results

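The glycolysis and hypoxia genes are 35 genes taken by symbol from a deposited table of 21347 usable genes. They hold 3 transporters of glucose and lactate, 15 glycolytic enzymes, 3 regulators of glycolysis, 3 genes of oxygen sensing, and 11 other genes known to respond to low oxygen. Each was measured in 40 RNA libraries from cultures of 4T1, a BALB/c-derived line of mammary carcinoma. Ldha, which encodes the main lactate dehydrogenase subunit, was left out because 1 of its cells in the table holds no number. Of the 35 genes, 34 were tested, having 1 per M or more in 3 libraries or more. Slc16a3 reached that level in 1 library and was not tested. Slc2a3 passed the filter through 7 co-culture libraries only, so its difference between the arms had to be present for it to be tested at all.

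Glycolysis splits glucose into pyruvate through a chain of enzymes in the cytosol, and tumour cells often run it at a high rate even with oxygen present. The transcription factor HIF1 pairs a stable subunit with HIF1A, which prolyl hydroxylases mark for destruction when oxygen is plentiful. When oxygen falls, HIF1A persists, binds a short DNA core, and raises glucose uptake, most glycolytic enzymes, and genes of vessel growth, pH control and mitophagy. Activated T cells also raise glycolysis, with more of the glucose transporter GLUT1 at their surface.

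Cultures held 4T1 cells by themselves or together with splenic T cells of C57Bl6 mice. They stood on bare polystyrene, called uncoated plastic here, or on a coat laid down at 250 µg/ml: vitronectin, fibronectin, collagen IV or collagen I. T cells were added at 8 per carcinoma cell, and both arms received interleukin 2 at 30 U/mL for the 24 h of co-culture. Without T cells there were 5 libraries each for uncoated plastic and fibronectin and 4 for each other coat. With T cells there were 3 each for collagen I and vitronectin and 4 for each other substrate. They come from 5 experiments: experiments 2, 4 and 5 hold every substrate in both arms, experiment 1 holds only uncoated plastic and fibronectin, and experiment 3 has a single co-culture, on collagen IV. Loose and attached cells were combined before extraction, so a co-culture library is a mixture of carcinoma and T cell RNA, and fewer cells of a type cannot be told apart from less RNA per cell. The 4T1 strain differs from that of the T cells, and the reads were not assigned to either.

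Recovered depth was 18.95 to 47.73 M assigned reads in 39 libraries and 239.13 M in the collagen IV co-culture of experiment 5. Levels are given per M, the deposited unit of reads per M (megaread) of a scaled library size. All 19 carcinoma epithelial markers averaged 1 per M or more in 4T1 alone, where their summed level was 3377 to 4752 per M. The summed level of 20 T cell markers was 3.93 to 7.21 per M in 4T1 alone. In co-cultures it was 241 to 352 per M in experiment 1, 39.5 to 63.7 in experiment 2, 26.9 in experiment 3, 1231 to 3727 in experiment 4 and 24.1 to 54.5 in experiment 5. Experiment 4 thus stands apart in its T cell transcript content, and results are given with and without it.

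The carcinoma cells carried 1 dominant isoform at several steps, but not among the hexokinases. Per kb of annotated exon, Slc2a1, which encodes GLUT1, averaged 24.6 per M per kb over the 22 libraries of 4T1 alone. Slc2a3, which encodes the high-affinity transporter GLUT3, averaged 0.014 per M per kb, and the lactate exporter gene Slc16a3 averaged 0.041. A count of 0 allows up to 3 reads, or 0.0124 to 0.158 per M depending on the library. Slc2a3 was at or under that limit in 12 of the 22 libraries and Slc16a3 in 4. Of the hexokinases, which trap glucose in the cell, Hk1 stood at 18.5 and Hk2 at 12.2 per M per kb. Pfkl, the liver-type phosphofructokinase at the committed step, stood at 77.1, against 6.77 for the platelet-type Pfkp and 6.41 for the muscle-type Pfkm. Lengths join all annotated exons of a gene, 13401 bases for Pfkp and 3340 for Pfkm. Before division by length, Pfkp averaged 90.8 and Pfkm 21.4 per M, so the near-equal values of these 2 depend on the annotation. Aldolase was almost wholly Aldoa, at 354 per M per kb against 1.43 for Aldoc, and enolase was Eno1, at 494 against 0.285 for the neuronal Eno2.

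The late enzymes were the most abundant members. Pkm, the pyruvate kinase gene, averaged 754 per M per kb, Pgk1, phosphoglycerate kinase, 632, and Pgam1, phosphoglycerate mutase, 603. Of the HIF prolyl hydroxylases, Egln1 stood at 36.9 and Egln3 at 13.2 per M per kb, beside 17.6 for Hif1a itself. Of the collagen prolyl hydroxylases, P4ha1 stood at 31.7 and P4ha2 at 1.88. Gapdh, Pgk1, Aldoa, Tpi1, Pgam1, Eno1 and Pkm have near-identical processed copies in the mouse genome. How reads shared with such copies were counted is not given in the sources used here, so their levels are less certain than those of the other members.

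**Figure D1:**
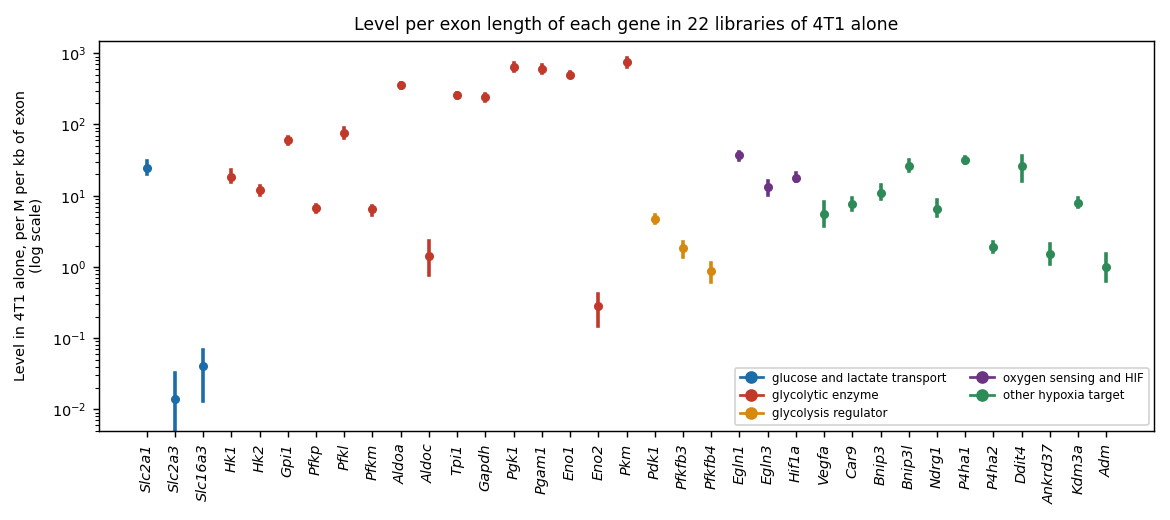
Level of each of the 35 genes in 4T1 alone, per M per kb of exon on a log axis, coloured by role; points are means over 22 libraries and bars run from the lowest to the highest library (a lowest value of 0 is drawn at the axis edge). Pkm, at 754 per M per kb, is the highest, and Slc2a3, at 0.014, the lowest.

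Promoter windows were available for 32 of the 35 genes in the RefSeq table of build GRCm38.p6, each from 250 bases before to 50 after the start of the gene. Slc2a3, Bnip3l and Ndrg1 had no entry. The windows of 4 members are shown because these genes are taken up below. On the deposited scale, Pfkl and Slc2a1 were called lower with T cells and Pdk1 higher, as a mean over substrates. None of these calls held in that mean with libraries scaled to the carcinoma markers, where 0% of all genes were called lower and 4.83% higher. Bnip3 had the largest difference of a coat, which was not called in the fit without a block. The Pfkl window is chr10:78009758-78010057 on the minus strand, and the Slc2a1 window is chr4:119108495-119108794 on the plus strand. The Pdk1 window is chr2:71872974-71873273 on the plus strand, and the Bnip3 window is chr7:138909457-138909756 on the minus strand. Each is written 5′ to 3′ on the strand of the gene, and capitals mark the letters of the HIF core, ACGTG or GCGTG on either strand.
Pfkl: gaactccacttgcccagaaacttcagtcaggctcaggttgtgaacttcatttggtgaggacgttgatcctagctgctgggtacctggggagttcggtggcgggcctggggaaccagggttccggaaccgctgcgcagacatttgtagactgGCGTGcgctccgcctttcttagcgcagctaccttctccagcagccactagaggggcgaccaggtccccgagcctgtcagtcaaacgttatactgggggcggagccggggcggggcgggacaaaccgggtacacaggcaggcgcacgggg
Slc2a1: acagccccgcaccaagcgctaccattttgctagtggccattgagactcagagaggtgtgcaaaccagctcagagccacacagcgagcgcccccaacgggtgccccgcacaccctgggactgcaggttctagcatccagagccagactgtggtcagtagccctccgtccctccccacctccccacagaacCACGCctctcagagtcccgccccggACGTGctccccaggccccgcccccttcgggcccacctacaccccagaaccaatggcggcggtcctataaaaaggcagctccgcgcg
Pdk1: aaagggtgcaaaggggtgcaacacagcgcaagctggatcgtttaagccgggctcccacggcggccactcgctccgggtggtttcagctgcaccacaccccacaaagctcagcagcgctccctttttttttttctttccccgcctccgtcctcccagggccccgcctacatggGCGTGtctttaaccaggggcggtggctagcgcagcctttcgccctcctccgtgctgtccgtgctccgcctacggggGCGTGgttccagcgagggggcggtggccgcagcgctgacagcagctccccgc
Bnip3: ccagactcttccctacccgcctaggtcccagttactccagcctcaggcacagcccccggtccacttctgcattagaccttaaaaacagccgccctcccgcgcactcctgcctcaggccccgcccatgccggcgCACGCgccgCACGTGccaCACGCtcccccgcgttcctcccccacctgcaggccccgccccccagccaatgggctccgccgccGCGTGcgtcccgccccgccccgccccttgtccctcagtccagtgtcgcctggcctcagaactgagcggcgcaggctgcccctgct

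The core letters stood at 1 place in the Pfkl window, 2 in that of Slc2a1, 2 in that of Pdk1 and 4 in that of Bnip3. Bnip3 had 5 matches, since its CACGTG reads as ACGTG on both strands and was counted for each. With 1 window per gene, 25 of the 32 members (78.1%) held a match, beside 11836 of 27025 genes (43.8%). Tpi1, Aldoa, Pkm, Hk1, Gpi1, Eno2 and Vegfa had no match in their windows, which says only that these letters are not there. A match to 5 letters is a description of the sequence and not a binding site.

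As a mean over the 5 substrates on the deposited scale, adding T cells came with lower levels of most abundant glycolytic enzymes. Levels of Slc2a3, Pdk1 and Kdm3a were higher. When libraries were scaled to the carcinoma markers instead, none of the 34 was called lower, beside 0% of all genes. The test was limma on log2(value + 1) with 10 group means, with p-values adjusted by the Benjamini-Hochberg method over 14701 genes and called under 0.05. It called 9 of the 34 genes lower and 3 higher. Over all genes tested, 12.2% were called lower and 13.1% higher. The median difference over the 34 genes was -0.10 log2, beside -0.01 over all genes. All 9 genes called lower belong to glucose uptake or the glycolytic chain: Slc2a1, Pfkl, Aldoa, Tpi1, Gapdh, Pgk1, Pgam1, Eno1 and Pkm. This fit does not adjust for experiment, and experiment 3 gives 5 libraries to 4T1 alone and 1 to co-culture. In 4T1 alone, Aldoa, Tpi1, Gapdh, Pgk1, Pgam1 and Eno1 had their highest experiment mean in experiment 3. The part of that imbalance in their difference was not tested. With the experiment added to the fit, the median difference over the 34 genes was also -0.10 log2. Under marker scaling, Slc2a1, Aldoa, Gapdh, Pgk1 and Pgam1 had differences of 0.01 to 0.03 log2, above 0, and the other 4 stayed below 0.

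Pfkl ranged from 430 to 588 per M in 4T1 alone, with a median of 527, and from 300.2 to 564 in co-culture, with a median of 432. The arms overlapped, and the difference was -0.27 ± 0.08 log2 (SE, adjusted p = 0.016, limma). Eno1 had the lowest adjusted p of the enzymes: its median was 2613 per M alone (2486 to 2948) and 2414 with T cells (1830 to 2666), a difference of -0.19 ± 0.04 (adjusted p = 0.00549, limma). It was lower in 17 of the 18 pairs of wells that share an experiment and a substrate. Tpi1, triose phosphate isomerase, had a median of 704 alone (652 to 752) and 636 with T cells (440 to 722), a difference of -0.21 ± 0.05 (adjusted p = 0.011, limma).

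Pkm had a median of 3837 per M alone (3239 to 4234) and 3249 in co-culture (2282 to 4024), and differed by -0.22 ± 0.07 log2. For Gapdh, the textbook reference gene of glycolysis, the medians were 1017 (884 to 1111) and 881 (665 to 1056), a difference of -0.18 ± 0.05. Pgk1 went from a median of 1396 (1284 to 1629) to 1334 (863 to 1494), and Aldoa from 1026 (954 to 1110) to 964 (725 to 1053), each -0.18 log2. In each of these enzymes the arms overlapped, and the lowest library was the collagen IV co-culture of experiment 4.

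The genes that were higher with T cells were low or moderate in 4T1 alone. Slc2a3 was 0 to 0.233 per M alone, with a median of 0.0962, and 0 to 26.9 in co-culture, with a median of 0.567. Its difference was 1.28 ± 0.35 log2 (adjusted p = 0.0128, limma), and it was higher in 16 of 18 pairs. Since Slc2a3 entered the test only through co-culture libraries, that p-value and its call do not count as support for the difference. Pdk1, the kinase that turns off pyruvate dehydrogenase and so keeps pyruvate out of mitochondria, was 31.9 to 41.9 per M alone, with a median of 37.8, and 37.5 to 170.7 in co-culture, with a median of 39.0. The difference was 0.43 ± 0.14 (adjusted p = 0.0273, limma), with the co-culture higher in 16 of 18 pairs. Kdm3a, a histone demethylase and HIF target, was 57.1 to 75.4 alone, with a median of 64.9, and 62.2 to 110.9 in co-culture, with a median of 69.6. It was higher in all 18 pairs, by 0.18 ± 0.05 (adjusted p = 0.0125, limma). Slc16a3, which was not tested, was 0.0703 to 0.367 per M alone and 0.0527 to 1.38 with T cells.

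These counts rest on experiment 4. With the experiment as a replicate block, 20 of the 34 genes were called lower and 5 higher, beside 23.4% and 22.4% of all genes. The block added Hk1, Hk2, Gpi1, Pfkm, Aldoc, Vegfa, Car9, Egln1, P4ha1, P4ha2 and Ddit4 to those called lower, and Bnip3l and Hif1a to those called higher. Without experiment 4 and without the block, 0 genes were called in either direction, beside 0.381% lower and 2.54% higher of all genes. Without experiment 4 and with the block, 1 gene was called lower and 3 higher, beside 4.69% and 5.75% of all genes. Those genes were Eno1, at -0.09 ± 0.03 log2 (adjusted p = 0.0282, limma), Slc2a3, at 0.38 ± 0.10 (adjusted p = 0.0149), Pdk1, at 0.10 ± 0.03 (adjusted p = 0.0399), and Kdm3a, at 0.09 ± 0.02 (adjusted p = 0.012). The call of Slc2a3 has the limit given above, as it passed the filter only through co-cultures.

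**Figure D2:**
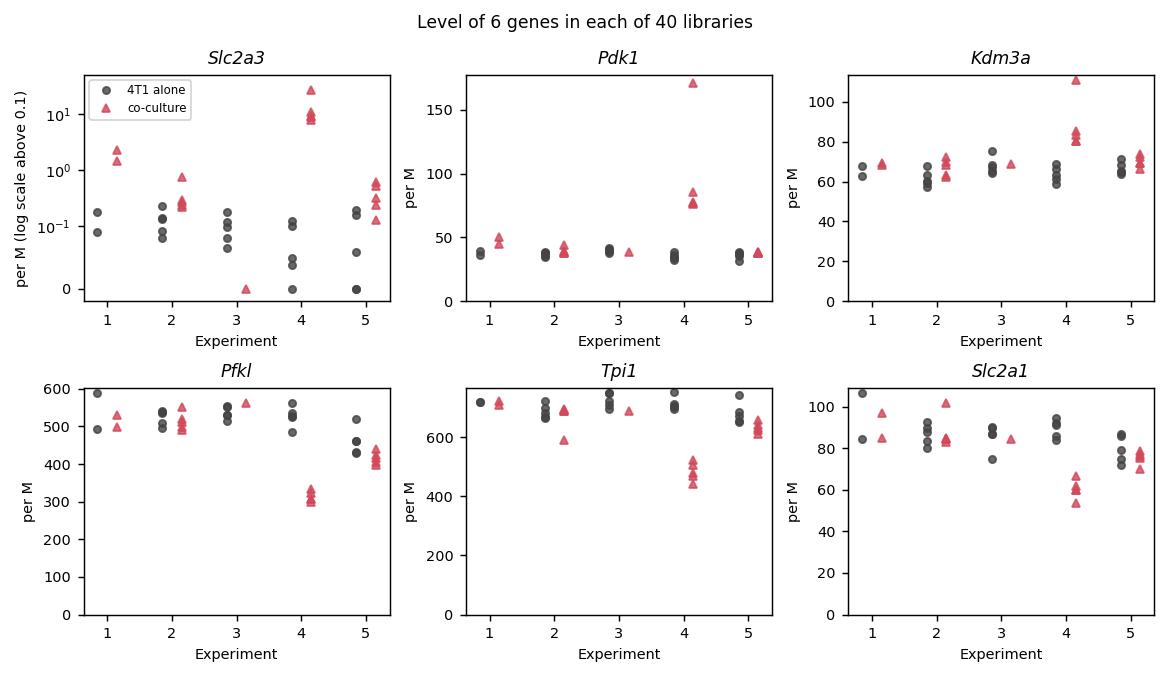
Levels per M of Slc2a3 (log scale above 0.1), Pdk1, Kdm3a, Pfkl, Tpi1 and Slc2a1 in each of the 40 libraries by experiment; circles are 4T1 alone and triangles are co-cultures. The 5 co-cultures of experiment 4 lie apart from the libraries of 4T1 alone in all 6 genes.

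Fitted within each experiment, T cells came with a broad change of the glycolysis genes in experiment 4 and few calls elsewhere. In that experiment 25 of the 34 genes were called lower and 6 higher. Of all genes, 32% were called lower and 32.4% higher there, so the share of lower calls is above the background and that of higher calls is not. The median difference over the 34 genes was -0.40 log2, beside -0.01 over all genes. Of the 15 glycolytic enzymes 14 fell on the deposited scale, and Eno2 did not pass (-0.05 ± 0.10). That direction depends on the scaling. With libraries scaled to the carcinoma markers, the median over all genes was 0.42 log2. On that scale 13 of the 25 genes called lower had a difference above 0 and 12 below, while all 6 called higher stayed above 0. In experiment 4 the co-culture range lay below that of 4T1 alone in 19 genes, as it did in 18.3% of all genes, and above it in 6 of the genes tested, as it did in 23.6%.

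Pfkl had the largest fall of the enzymes on the log2(value + 1) scale. In experiment 4 it was 528 per M alone and 308 with T cells on uncoated plastic, 564 and 306 on vitronectin, 486 and 323 on fibronectin, 526 and 300.2 on collagen IV, and 535 and 335 on collagen I. All 5 wells with T cells were below all 5 without, and the fitted difference was -0.74 ± 0.05 log2 (adjusted p = 9.8e-16, limma). Slc2a1 went from 92.1 to 60.1 per M on uncoated plastic, 91.1 to 66.5 on collagen I, 85.7 to 53.5 on collagen IV, 84.1 to 60.1 on fibronectin and 94.7 to 61.7 on vitronectin. The groups did not overlap, with a difference of -0.56 ± 0.05. Aldoc, at a much lower level, had the lowest ratio of means of the enzymes, 0.581 against 0.596 for Pfkl. It was 4.58 to 6.64 per M alone and 2.29 to 3.46 with T cells, without overlap, and fell by 0.63 on the log2(value + 1) scale, on which low values are compressed. Tpi1 fell by 0.56 on the log2 scale, from 696 to 752 per M alone to 440 to 523 with T cells. Pkm and Hk2 each fell by 0.52 and Pgk1 by 0.50, and stayed below 0 under marker scaling. Gapdh fell by 0.45, with 0.02 under marker scaling. The isoforms of a step moved by unequal amounts: Pfkm (-0.18 ± 0.06) and Pfkp (-0.15 ± 0.05) had smaller differences than Pfkl, and Hk1 (-0.22 ± 0.05) a smaller one than Hk2; under marker scaling Pfkm, Pfkp and Hk1 were above 0, and the differences between genes were not tested.

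Slc2a3, Pdk1 and Pfkfb3 rose where most enzymes fell. Slc2a3 in experiment 4 was 0 to 0.125 per M alone, and with T cells it was 26.9 on collagen IV, 10.9 on vitronectin, 9.06 on uncoated plastic, 8.90 on collagen I and 7.81 on fibronectin. Its fitted rise was 3.54 ± 0.17 log2, which adding 1 to each value holds down. Pdk1 was 32.5 to 38.8 alone, and with T cells 170.7 on collagen IV, 85.4 on vitronectin, 77.4 on collagen I, 77.3 on fibronectin and 76.3 on uncoated plastic. It rose by 1.37 ± 0.11 (adjusted p = 3.1e-12, limma), with no overlap. Pfkfb3, which makes the activator of phosphofructokinase, rose by 0.49 ± 0.08, from 12.4 to 15.04 per M alone to 16.1 to 27.0. Its relative Pfkfb4 did not pass (0.03 ± 0.09).

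Among the oxygen-sensing genes of experiment 4, Hif1a rose by 0.24 ± 0.06 log2, from 95.5 to 110.2 per M alone to 113 to 128 with T cells. The hydroxylase genes Egln1 and Egln3 each fell by 0.29, with 0.18 and 0.17 under marker scaling. Of the 11 other hypoxia targets, 8 fell and 2 rose. Ddit4, an inhibitor of mTORC1 signalling induced by stress, fell by 0.74, from 45.4 to 64.0 per M alone to 26.6 to 37.8. P4ha2, a collagen hydroxylase, fell by 0.61, and Car9, the cell-surface carbonic anhydrase, by 0.60, from 14.5 to 17.7 per M to 6.34 to 12.4. Vegfa, the angiogenic factor, fell by 0.47, Adm, the peptide adrenomedullin, by 0.44, P4ha1 by 0.41, Ndrg1 by 0.40 and the mitophagy receptor gene Bnip3 by 0.36, the last 3 being above 0 under marker scaling. Kdm3a rose by 0.45 ± 0.06 and Bnip3l, a relative of Bnip3, by 0.17 ± 0.04. Ankrd37 did not pass (-0.09 ± 0.10).

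**Figure D3:**
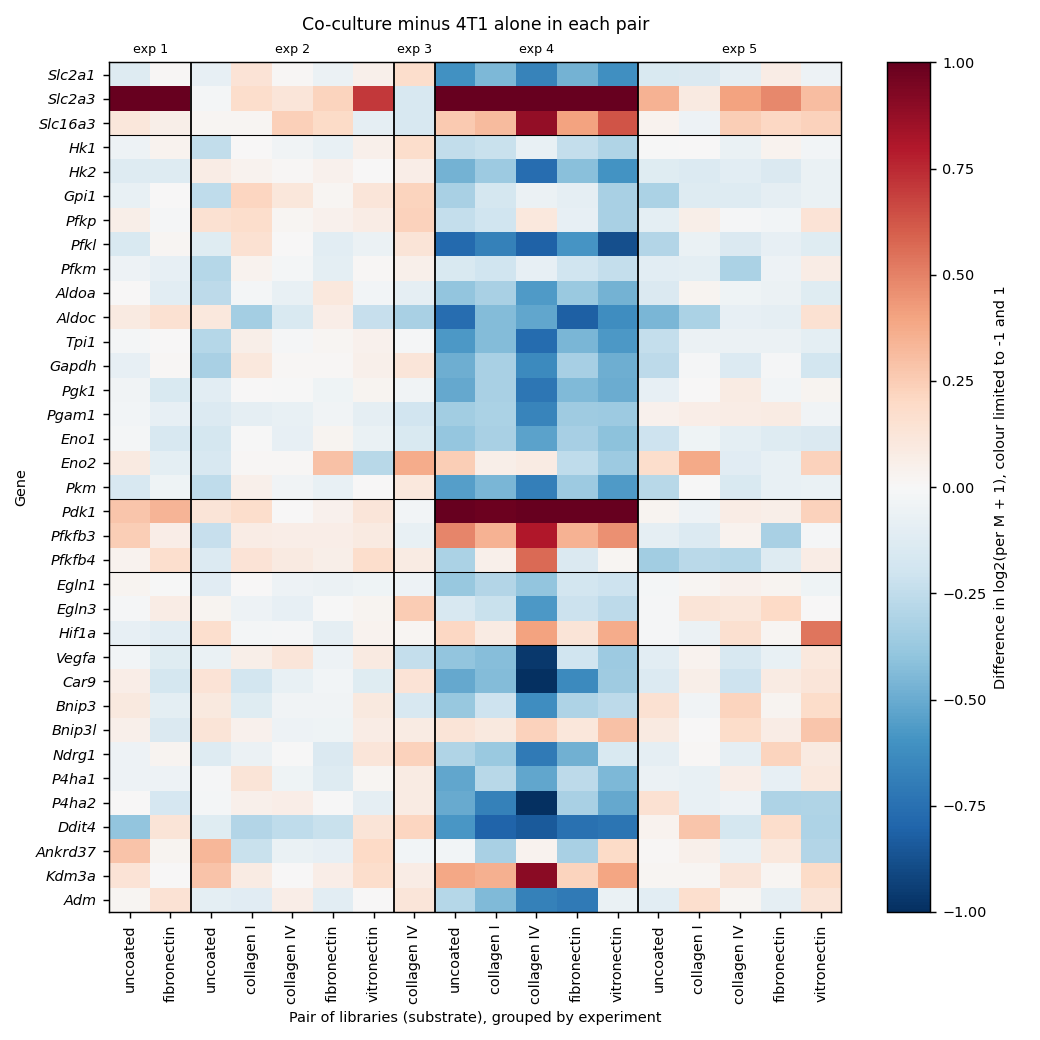
Difference in log2(per M + 1) between co-culture and 4T1 alone for each of the 35 genes (rows, grouped by role) in each of the 18 pairs of wells (columns, grouped by experiment), on the deposited scale (13 of the 25 genes called lower in experiment 4 are above 0 under marker scaling); blue is lower and red higher in co-culture, with colours limited to -1 and 1. The 5 pairs of experiment 4 have medians over the genes of -0.54 to -0.31, and the other 13 pairs -0.10 to 0.08.

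Outside experiment 4, the fitted differences of the members other than Slc2a3 ran from -0.24 to 0.31 log2, with a median of -0.01. In experiment 1, Slc2a3 was the 1 gene called higher and 0 were called lower, beside 3.16% and 0.0136% of all genes: its levels were 0.0909 alone and 1.47 with T cells on uncoated plastic, and 0.182 and 2.32 on fibronectin, a rise of 1.33 ± 0.27 (adjusted p = 0.0013, limma). That call does not count as support, since Slc2a3 was tested only through its co-culture levels. In experiment 2, 0 genes were called in either direction by limma or edgeR (0.0884% of all genes lower and 1.27% higher), and 2 had an unadjusted p under 0.05. In experiment 3, with its single co-culture, 0 were called by either tool (0.361% lower and 0.286% higher), and 1 had an unadjusted p under 0.05. In experiment 5, limma called 0 (1.82% lower and 2.55% higher) with 10 at an unadjusted p under 0.05. By edgeR, 2 were called lower there, with no edgeR share of all genes given. Nor is a share of all genes at an unadjusted p under 0.05 given for experiments 2, 3 and 5. None of those counts can be set against a background. The T cell difference itself varied between experiments in 28 of the 34 genes by an F test in limma, as it did in 45.1% of all genes. Under marker scaling the count was 11, beside 66.3% of all genes, and without experiment 4 it was 1, beside 6.62%. Wells of an experiment are not independent repeats of it. The error of these fits was pooled over all 40 libraries (26 residual degrees of freedom). The p-values for an experiment therefore measure neither spread between repeats of it nor spread between its own wells alone.

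**Figure D4:**
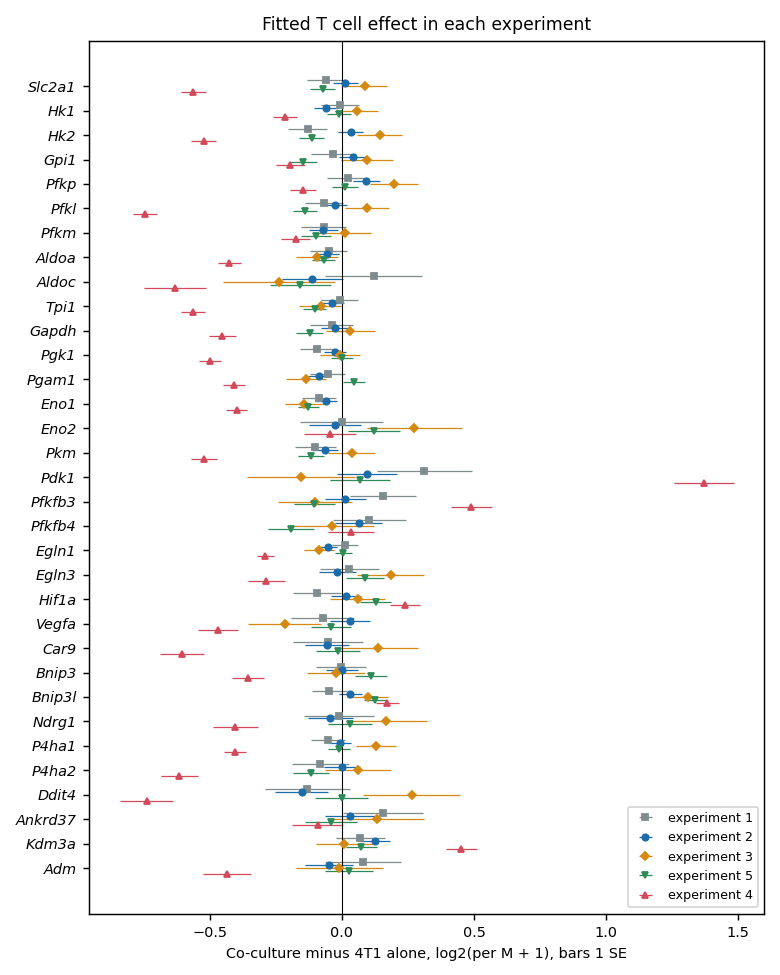
Fitted difference between co-culture and 4T1 alone in each experiment for the 33 tested genes other than Slc2a3, in log2(per M + 1) on the deposited scale, with bars of 1 SE (13 of the 25 genes called lower in experiment 4 are above 0 under marker scaling). Experiment 4 lies apart for most enzymes, with Pfkl at -0.74 and Pdk1 at 1.37, while the other experiments stay between -0.24 and 0.31.

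The levels of other cell types moved with these genes in experiment 4. All 20 T cell markers were called higher there and all 19 carcinoma epithelial markers lower, the latter with a median of -0.47 log2. The summed carcinoma markers were 3565 to 4193 per M alone and 2112 to 3151 with T cells. The summed B cell markers were 0 to 0.148 per M alone and 44.9 to 139 with T cells, and the summed erythroid markers 0.148 to 0.534 and 5.74 to 36.8. Macrophage markers summed to 2.47 to 3.90 and 5.49 to 7.40 per M. The collagen IV co-culture had the highest T cell, B cell and erythroid sums and also the highest Slc2a3, Pdk1 and Kdm3a and the lowest Tpi1, Pfkl and Slc2a1. The part of these shifts in the members' differences was not tested, other than by the scaling that follows.

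Scaling the libraries to the 19 carcinoma markers moved the median of all genes to 0.42 log2 in experiment 4 and to 0.16 in the mean over substrates, and that of the members to 0.07 in both. Relative to all genes the members then stood at -0.35 in experiment 4, beside -0.39 on the deposited scale, and at -0.09 on both scales in the mean over substrates. With quantile normalisation these values were smaller, -0.22 and -0.06. In experiment 4, 4 genes were still called lower on this scale, beside 1.23% of all genes, and 15 were called higher, beside 80.3%. The 4 were Pfkl (-0.28 ± 0.07), Ddit4 (-0.28 ± 0.10), P4ha2 (-0.19 ± 0.08) and Car9 (-0.17 ± 0.07). In the mean over substrates, 0 genes were called lower and 1 higher, beside 0% and 4.83% of all genes. The 1 was Slc2a3, which was tested only through its co-culture levels. Scaling to the markers makes their mean equal in every library, so it cannot show whether they changed with T cells. T cell RNA remains in the scaled values, so a difference above 0 does not show an unchanged level in carcinoma cells. The mean log2 level of these markers ran from 6.75 to 7.35 in 4T1 alone. The fit of the mean over substrates was not adjusted for experiment. Quantile normalisation gave 10 lower and 4 higher calls among the members, with the split of all calls moving to 3072 lower and 1501 higher, from 1788 and 1922. Scaling to column totals gave 7 lower and 3 higher among the members, with all calls at 948 lower and 2287 higher. In experiment 4, quantile normalisation gave 27 lower and 6 higher among the members, with all calls at 7672 lower and 3452 higher, from 4697 and 4756.

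On each substrate taken alone, 0 of the 34 genes were called with T cells added, as were 0% of all genes in each of the 5 limma comparisons. Uncoated plastic had 7 genes with an unadjusted p under 0.05, collagen IV and vitronectin had 2 each, and the other coats had 0. No share of all genes is given at that threshold, so these counts cannot be set against a background. By edgeR, 1 gene was called on collagen IV, beside 1.81% of all genes, and 0 elsewhere. The largest difference on every substrate was that of Slc2a3, from 1.12 ± 0.83 log2 on collagen I to 1.495 ± 0.83 on vitronectin. Pdk1 came next, from 0.34 ± 0.34 on collagen I to 0.59 ± 0.31 on collagen IV. The Pfkl difference lay between -0.38 ± 0.19 (vitronectin) and -0.20 ± 0.17 (collagen IV). With the replicate block, Gpi1 on uncoated plastic was called (-0.23 ± 0.06, adjusted p = 0.0407, limma), beside 3.78% of all genes. By edgeR with that block, 4 genes were called on uncoated plastic (8.39% of all genes), 3 on vitronectin (6.39%), 2 on collagen IV (6.55%), 1 on fibronectin (3.13%) and 0 on collagen I. The F test of whether the T cell difference depends on the substrate called 0 of 34 by limma and by edgeR, as limma did for 0% of all genes, with 0 at an unadjusted p under 0.05.

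In 4T1 cells alone the substrates gave similar levels for most members. Across the 5 substrate means, the highest was 1.03 to 1.61 times the lowest for the 33 genes other than Slc2a3 and Slc16a3, with a median of 1.10. Against uncoated plastic, 0 of 34 genes were called on collagen I (0.0952% of all genes), collagen IV (0.0068%), fibronectin (0%) or vitronectin (0%), by limma or by edgeR. At an unadjusted p under 0.05, limma had 1 gene on collagen I and 0 on the others. For this count and that of the F test below, no share of all genes is given at that threshold. The F test over substrates called 0 in 4T1 alone (0.252% of all genes) and 0 in co-culture (0.129%), with Egln3 the 1 gene at an unadjusted p under 0.05 in each (0.0163 and 0.042). These counts of 0 do not show that levels were equal, since the fit leaves differences between experiments in its spread.

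Bnip3 had the largest coat difference. It was 27.1, 32.3, 27.7 and 29.3 per M on collagen I in experiments 2 to 5, beside 20.1, 26.5, 22.8 and 22.8 on uncoated plastic and 20.7 there in experiment 1. The collagen I wells were higher in 4 of 4 pairs, and every value on collagen I was above every value on uncoated plastic. The difference was 0.36 ± 0.14 log2 in the fit without a block (unadjusted p = 0.0137, adjusted p = 1, limma). With the replicate block over all 40 libraries, 0 members were called on collagen I. When the 22 libraries of 4T1 alone were fitted by themselves with that block, 3 members were called on collagen I, beside 3.14% of all genes: Bnip3 at 0.34 ± 0.05 (adjusted p = 0.00218, limma), Kdm3a at 0.18 ± 0.04 (adjusted p = 0.0143) and Pfkfb4 at -0.30 ± 0.08 (adjusted p = 0.0416). The mean of Kdm3a was 70.3 ± 3.98 per M (SD, n = 4) with collagen I and 62.2 ± 3.24 (n = 5) without a coat. Pfkfb4 was 3.00 to 4.38 with collagen I and 3.73 to 5.37 without a coat, and was lower in 4 of 4 pairs.

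In that same blocked fit, the F test over substrates called 5 members, beside 9.82% of all genes: Bnip3, Egln3, Kdm3a, Pdk1 and Slc2a1. Egln3, which encodes an oxygen-dependent hydroxylase that HIF itself induces, averaged 39.8 ± 1.16 per M on collagen I, 38.5 ± 5.61 on vitronectin, 35.5 ± 3.86 on uncoated plastic, 32.2 ± 1.63 on fibronectin and 30.0 ± 1.95 on collagen IV (SD, n = 4 or 5). It was lower on collagen IV than on uncoated plastic in 3 of 4 pairs alone and in 3 of 3 pairs of co-cultures. In co-culture, Egln3 stood highest on collagen I, at a mean of 38.1 per M, and lowest on collagen IV, at 29.0. Slc2a1 averaged 92.9 ± 7.91 per M on uncoated plastic and 79.7 ± 5.83 on collagen IV. Pdk1 was 38.8 to 41.9 on collagen I and 31.9 to 39.7 on vitronectin.

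Adm and Ndrg1 also ranked high among the coat differences but passed none of the coat fits. Adm averaged 1.98 ± 0.39 per M on collagen I and 1.23 ± 0.24 on vitronectin, and Ndrg1, a stress-responsive gene, 48.5 ± 6.45 and 38.4 ± 3.99. Differences from uncoated plastic in the fit without a block were -0.23 ± 0.12 log2 for Egln3 on collagen IV, -0.22 ± 0.13 for Slc2a1 on collagen IV, 0.20 ± 0.22 for Aldoc on fibronectin and 0.19 ± 0.24 for Ddit4 on vitronectin. The last pair of errors is larger than the differences.

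**Figure D5:**
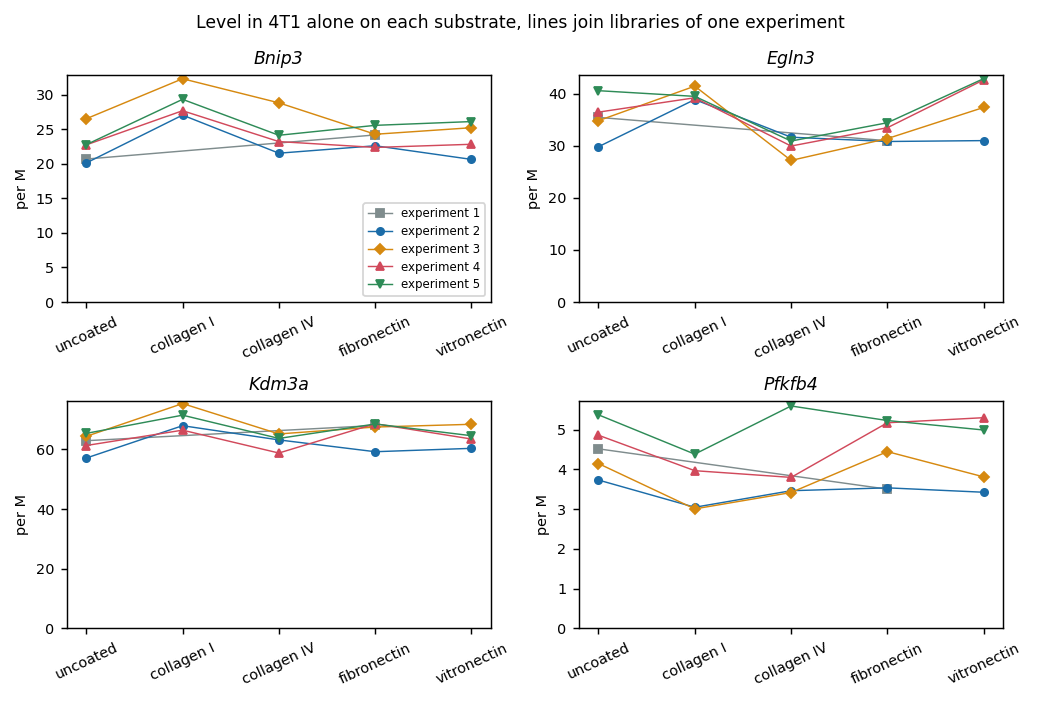
Levels per M of Bnip3, Egln3, Kdm3a and Pfkfb4 in 4T1 alone on each substrate; lines join the libraries of an experiment and carry no order of substrates. Bnip3 on collagen I, at 27.1 to 32.3 per M, lies above its uncoated wells in each experiment that has both.

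In 4T1 cells alone, more members were called between experiments than between substrates, and this trait was shared with all genes tested. An F test over the 5 experiments, with substrate in the model, called 24 of the 34 genes (limma, adjusted p). That is 70.6% of the members, beside 61.4% of all genes. With the replicate block in the same 22 libraries, the F test over substrates called 5 members, beside 9.82% of all genes. Eno2 had the widest range of experiment means, from 0.79 ± 0.13 per M (SD, n = 2) in experiment 1 to 1.74 ± 0.13 (n = 5) in experiment 5. Aldoc ran from 3.36 ± 0.56 (n = 5) in experiment 3 to 6.17 ± 1.17 (n = 5) in experiment 5. Vegfa ran from 18.8 ± 1.44 in experiment 5 to 31.1 ± 2.24 in experiment 2, with no overlap between the 5 wells of each. Ddit4 ran from 33.9 ± 2.39 in experiment 3 to 56.0 ± 4.07 in experiment 2, also without overlap. Adm ran from 1.20 to 1.97 per M and Pfkfb4 from 3.44 to 5.11.

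Egln1, Hk1, Bnip3l and P4ha2 had narrower ranges of experiment means. Egln1 ran from 116 ± 2.03 per M in experiment 5 to 147 ± 2.21 in experiment 2, and Hk1 from 137 ± 4.38 to 180.2 ± 9.89 in the same experiments. Bnip3l went from 88.6 ± 5.50 (n = 2) in experiment 1 to 117 ± 3.14 in experiment 5, and P4ha2 from 10.3 ± 0.40 in experiment 5 to 13.1 ± 0.76 in experiment 2. Of the 35 genes, 14 had their highest mean in experiment 3 and 15 their lowest in experiment 5. Whether these follow from the day, the passage of the cells or the library preparation was not tested.

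Other genes of the same pathways were read from lists that did not include the members. Of 27 further glycolysis and sugar metabolism genes tested, 2 were called higher and 4 lower with T cells in the mean over substrates, or 7.41% and 14.8%, beside 13.1% and 12.2% of all genes. Pdk2, another pyruvate dehydrogenase kinase, was higher (0.42 ± 0.14 log2), as was Pfkfb2 (0.17 ± 0.05), while Eno3 (-0.28 ± 0.05) and the transketolase gene Tkt (-0.17 ± 0.03) were lower. Of 36 further hypoxia genes, 4 (11.1%) were higher, led by Rora (1.03 ± 0.23) and Epas1, which encodes HIF2A (0.57 ± 0.18). Another 7 (19.4%) were lower, led by Fam162a (-0.28 ± 0.06) and Stc2 (-0.25 ± 0.06). Of 38 genes of the tricarboxylic acid cycle and respiratory chain, 14 (36.8%) were lower and 0 higher, led by Atp5o (-0.19 ± 0.03) and Cox5a (-0.18 ± 0.07). Under marker scaling, 0 genes of the 3 lists were called lower in this mean, and 1, 2 and 0 were called higher. In experiment 4, 22.2% of the further glycolysis genes were called higher and 40.7% lower, 25% and 41.7% of the further hypoxia genes, and 2.63% and 55.3% of the tricarboxylic acid cycle and respiratory chain genes, beside 32.4% and 32% of all genes. Under marker scaling the calls there were 25 higher and 0 lower of 27, 27 and 3 of 36, and 35 and 0 of 38, beside 80.3% higher and 1.23% lower of all genes. On the deposited scale, the median difference in experiment 4 was -0.02 log2 for the further glycolysis genes, -0.04 for the further hypoxia genes and -0.11 for the tricarboxylic acid cycle and respiratory chain genes.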

How the data were processed

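RNA of 40 libraries was read as single ends of 75 bases. Per the submitters' processing notes, STAR 2.6, featureCounts, edgeR 3.31.7 and the mouse build mm10 were used; options and annotation are not given in the sources used here. The deposited values are a normalised expression signal per gene, made by the authors from read counts and a scaled library size. They gave whole reads for 100% of values (within 0.01), with depths of 18.95 to 239.13 M. Intervals and the floor of 3 reads cover counting error only. Of 21349 lines, 1 duplicate line and Ldha were dropped, and 19 symbols had become dates. Within groups, 62 pairs of libraries differed by more than sampling noise (chi-square per degree of freedom 6.52 to 697.1).

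The test was limma 3.58.1 (R 4.3.3) on values to which 1 was added before taking log2 (intensity trend, group-mean model, 30 residual degrees of freedom; 26 in the fit by experiment), on the 14701 genes at 1 per M or more in 3 libraries, with edgeR 4.0.16 on recovered reads as an alternative. The fit of the mean T cell difference was also run on simulated counts drawn without differences between experiments. That run does not vouch for the other fits or for libraries that correlate within an experiment. Replicate numbers mark experiments that the labels call biological replicates. Residuals correlated at a median of 0.478 over 156 pairs of libraries of an experiment (lowest 0.041) and -0.131 over 562 pairs of different experiments. A replicate block was therefore an alternative, beside pseudocounts, filters, scalings and left-out libraries. Exon lengths and positions are from GENCODE vM21 (GRCm38, the same build as mm10), and promoters from RefSeq.

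The members, lists and tests were chosen with earlier results of these data known. All 35 genes are named; full values go to those passing, up to 10 by size of difference, or to the 5 largest where fewer than 5 pass. For other pathway genes at most 4 are named per list.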

Additional observations from a re-analysis of the deposited data

Results flagged for a closer look

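The T cell difference varied between experiments in 28 of the 34 genes tested, by an F test of the difference itself in limma (adjusted p under 0.05), beside 45.1% of all genes. In 112 combinations of a member and a group of 4 or 5 libraries, 16 held a library that stood apart from the rest by Dixon's criterion. The 14 members were the 12 called in the mean T cell difference, with Bnip3 and Egln3. Those calls rest on experiment 4, and the same libraries recur for each member. The criterion's rate of about 1 in 20 is therefore no measure of chance here, and no share of all genes is given. Of the 16, 10 were co-cultures of experiment 4, which the choice of members favoured. On collagen IV that co-culture stood apart in Slc2a3 (26.9 per M), Pdk1 (170.7) and Kdm3a (110.9) as the highest, and in Aldoa (725), Tpi1 (440.4), Pgk1 (863), Pgam1 (771) and Eno1 (1830) as the lowest. Pgk1 was also lowest in the experiment 4 co-cultures on fibronectin (1009 per M) and uncoated plastic (966).

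In 4T1 alone, experiment 5 was lowest for Slc2a1 on fibronectin (71.8 per M) and for Pfkl (432) and Pkm (3239) on vitronectin. Experiment 3 was highest for Pgk1 on uncoated plastic (1478) and for Pdk1 on collagen I (41.9), and experiment 2 was lowest for Kdm3a on fibronectin (59.2).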

How the results depend on the processing

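Of 684 values of the 12 genes called in the mean T cell difference under the alternatives, 611 kept direction and call, 68 kept direction only, and 5 reversed. Most of these alternatives leave out 1 of the 40 libraries and so stay close to the main fit. Slc2a3, whose call does not count as support, is among the 12. The reversals came with scaling to the carcinoma markers: Slc2a1 0.0154, Aldoa 0.0168, Gapdh 0.0143, Pgk1 0.0143 and Pgam1 0.0257 log2. That scaling gave 0 genes lower and 1 higher in the mean difference, 4 lower and 15 higher in experiment 4, and 11 differing between experiments.

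With the replicate block, the mean difference had 20 lower and 5 higher by limma, 19 and 5 by edgeR, and 19 and 5 with experiments 2, 4 and 5 only. An alternative chosen after seeing the data, the block without experiment 4, gave 1 lower, 2 on collagen I, 2 in the substrate F test, 2 on uncoated plastic and 1 on fibronectin. The block on 4T1 alone gave 3 on collagen I and 5 in the substrate F test, both 0 with the block over all libraries. For T cells by substrate, the block gave 1 on uncoated plastic by limma, and by edgeR 4 there, 3 on vitronectin, 2 on collagen IV and 1 on fibronectin; edgeR without it gave 1 on collagen IV. The block changed no other count by over 1.5 times. A pseudocount of 4 gave 0 higher in experiment 1. In experiment 5, a filter of 5 per M gave 1 lower, edgeR 2 lower, and a pseudocount of 0.25 gave 1 higher. Counts in this section that have no share of all genes given above cannot be set against a background.

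Leaving out a library or an experiment gave 0 to 15 lower and 0 to 4 higher in the mean difference. The 0 came without experiment 4, 4 lower without experiment 3, 5 without the experiment 4 co-culture on collagen I, 4 without that on vitronectin, 14 without either experiment 2 co-culture on those coats, and 15 without experiment 2. It gave 1 to 30 genes differing between experiments, with 1 without experiment 4. It gave 15 to 25 in the experiment F test, with 15 without experiment 5. It gave 0 to 2 higher in experiment 1, 0 to 3 lower and 0 to 2 higher in experiment 5, and 24 to 25 lower in experiment 4. Depth limits Slc2a3 in 4T1 alone, where 12 of 22 libraries held 3 reads or fewer.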
